A study of Arabidopsis thaliana with 12 samples.

Results

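The comparison described here sets chromatin regions of a tagged DELLA protein in plants with a mutated CUC2 gene against the same protein in plants with CUC2. It uses 4 of the 12 libraries of the study, the 2 ChIP replicates of gai-YPet cuc2-1 and the 2 ChIP replicates of gai-YPet, chosen by genotype. The first group carried pGAI:gai∆17-3xYPet and the cuc2-1 mutation, the second carried pGAI:gai∆17-3xYPet alone, and plants of the ecotype Landsberg erecta (Ler) without the transgene served as the control for the antibody. The source names give both tagged genotypes the same line name, L306, so each tagged genotype rests on that line. The transgene is driven by the GAI promoter, and the labels name no mutation of the resident GAI gene. Each replicate was a pool of 1.8 g of inflorescences of mature plants without open flowers, and the labels call the replicates independent. In such pools, binding in fewer cells and weaker binding per cell cannot be told apart. Chromatin was precipitated with an antibody to GFP, and the data are the peak lists of the single ChIP replicates on build TAIR10, without read totals, so that depth is unknown.

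DELLA proteins are nuclear repressors of gibberellin responses. Gibberellin, held by its receptor GID1, marks them for destruction, and the ∆17 form lacks the segment that the receptor grips and so escapes it. DELLAs do not recognise a DNA sequence of their own but sit on chromatin through transcription factors, among them the INDETERMINATE DOMAIN (IDD) zinc finger proteins. CUC2 is a NAC transcription factor that, together with CUC1 and CUC3, sets the boundaries between organs and acts in the placenta where ovules form. The title of the study names a DELLA-CUC2 complex, and the cuc2-1 plants address whether the regions held by the tagged DELLA differ without a working CUC2.

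The gai-YPet cuc2-1 lists held 7890 and 3582 peaks on the nuclear chromosomes in replicates 1 and 2, the gai-YPet lists 6836 and 11237, and the Ler lists 178 and 397. Peaks that touched a Ler peak were removed, which left 7808 and 3445 in gai-YPet cuc2-1 and 6691 and 11189 in gai-YPet. The median fold enrichment of nuclear peaks, a value the authors gave each peak, was 2.75 and 2.64 in gai-YPet cuc2-1 and 3.29 and 2.57 in gai-YPet. Peak lists hold no RNA or protein, so the tissue could not be checked against cell type markers. The longest list and the shortest list belonged to different genotypes, and the lists of one genotype differed from each other more in length than the genotypes did.

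Peaks of the 4 tagged lists that overlapped by at least 1 bp were merged into 12358 regions. All 4 lists had a peak at 2868 of these. A further 2317 were held by both gai-YPet lists and by gai-YPet cuc2-1 replicate 1, so that only the shortest list lacked them. Both gai-YPet cuc2-1 lists and no gai-YPet list held 41 regions, whereas both gai-YPet lists and no gai-YPet cuc2-1 list held 560. Counted over the regions of each genotype, that is 41 of 2968 (1.38%, Wilson 95% interval 1.02 to 1.87) for gai-YPet cuc2-1 and 560 of 5754 (9.73%, 8.99 to 10.5) for gai-YPet. These intervals cover counting only and not the spread between plants. With 2 lists against 2, an exact permutation test cannot give a two-sided p below 0.333, so the counts carry no test.

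**Figure D1:**
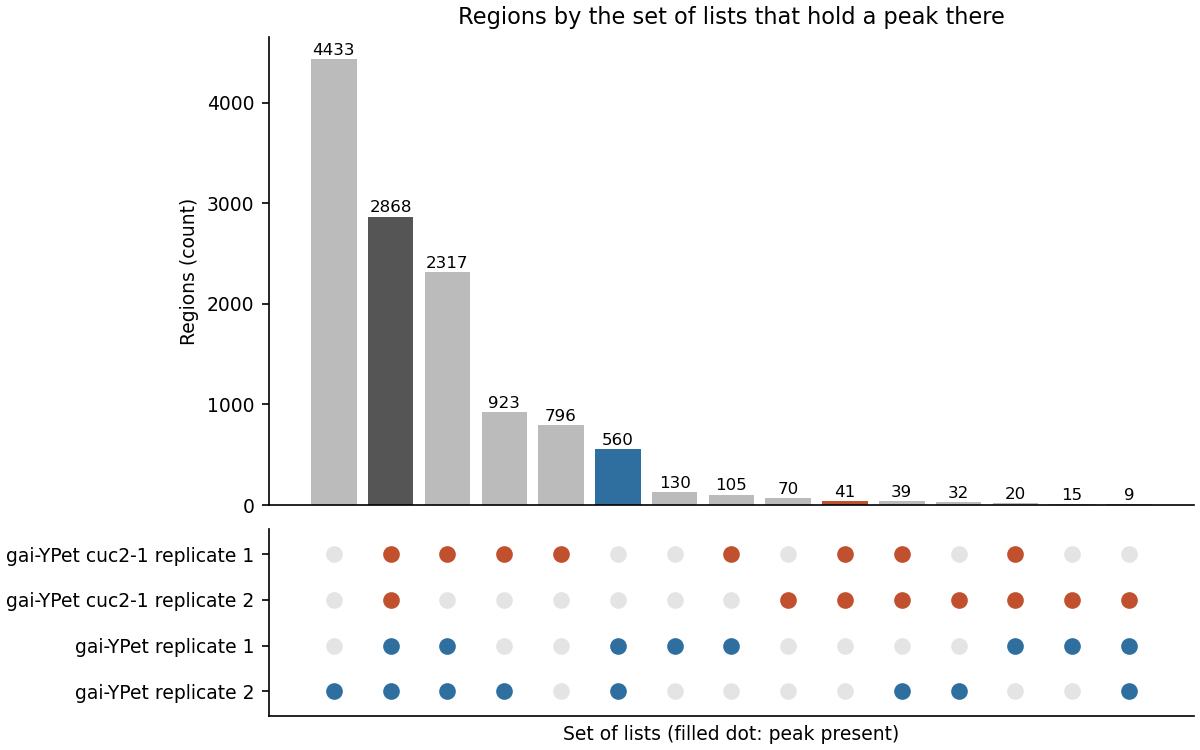
The bars give the number of merged regions (vertical axis, count) for each set of lists, and the filled dots below each bar mark the lists that held a peak. The 41 regions of both gai-YPet cuc2-1 lists only are in red and the 560 of both gai-YPet lists only in blue, beside 2868 held by all 4 lists and 4433 held by gai-YPet replicate 2 alone.

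The counts differed between the lists of one genotype as well as between genotypes. Of the 5754 gai-YPet regions, 5185 (90.1%) had a peak in gai-YPet cuc2-1 replicate 1 but 2877 (50%) in replicate 2. Of the 569 without a replicate 1 peak, 9 had one in replicate 2. Conversely, 2888 (97.3%) of the 2968 gai-YPet cuc2-1 regions had a peak in gai-YPet replicate 1 and 2907 (97.9%) in gai-YPet replicate 2. With every list cut to its strongest 3445 peaks, as many as the shortest held, 43 regions were held by gai-YPet cuc2-1 only and 109 by gai-YPet only. Without gai-YPet cuc2-1 replicate 1 the count for gai-YPet only was 2879, and without gai-YPet replicate 1 it was 4993. Without gai-YPet cuc2-1 replicate 2, 5185 regions were held by all the lists that remained.

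The regions that gai-YPet cuc2-1 lacked were weak ones in gai-YPet. The strength of a region was taken as the mean over the 2 lists of a genotype of the percentile, within the list, of its strongest peak by score, with 100 for the strongest. The gai-YPet regions were split into 10 groups of 575 or 576 by strength. In the weakest group 48.6% had no gai-YPet cuc2-1 peak, and in the next 5 groups the share was 25.2%, 13.6%, 6.25%, 2.96% and 0.696%. In the strongest 4 groups it was 0%. The share with a peak in gai-YPet cuc2-1 replicate 2 was 4.34% in the weakest group, 33.6% in group 5 and 100% in the strongest, against 51.0%, 96.7% and 100% for replicate 1. Of the 2787 gai-YPet regions that ranked within the first 3445 peaks of both gai-YPet lists, 5 (0.179%) had no gai-YPet cuc2-1 peak.

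**Figure D2:**
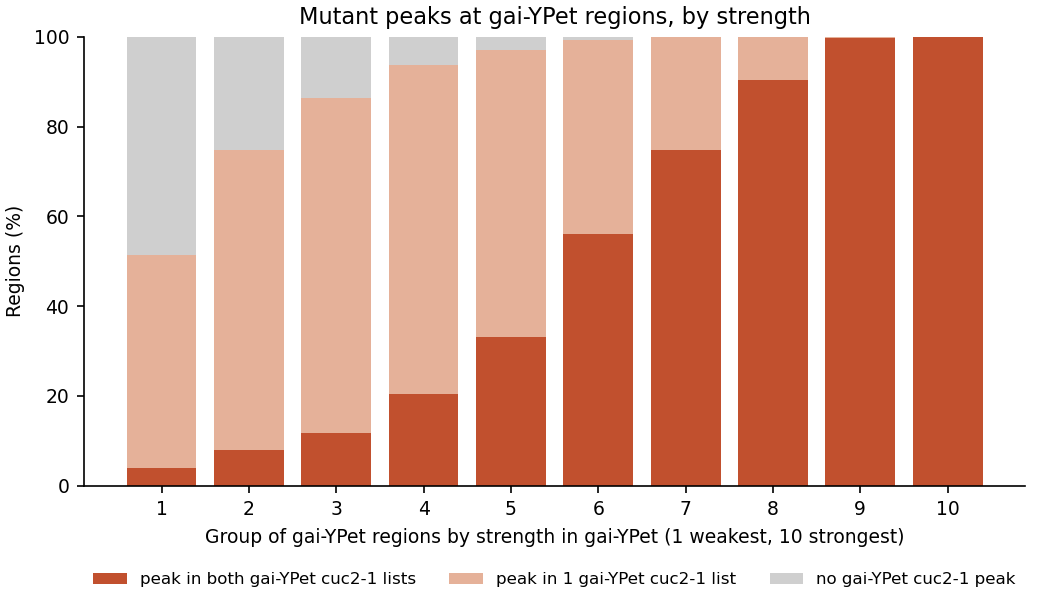
Shares (vertical axis, percent) of gai-YPet regions with a peak in both, in 1 or in no gai-YPet cuc2-1 list, in 10 groups by strength in gai-YPet from weakest to strongest (horizontal axis). The share with no gai-YPet cuc2-1 peak is 48.6% in the weakest group and 0% in the strongest 4, and the share with peaks in both lists is 3.99% in the weakest group and 100% in the strongest.

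At the regions held by all 4 lists, no difference in rank between the genotypes passed the test. Each list was ranked by score over these 2868 regions, and ranks are given as percentiles with 100 for the strongest. Normal scores of the ranks were compared with limma, and 0 regions passed a Benjamini-Hochberg adjusted p of 0.05 (0.0%, lowest adjusted p 0.969, limma, n = 2 each). At an unadjusted p under 0.05 limma gave 132 regions (4.6%), of which 60 ranked higher and 72 lower in gai-YPet cuc2-1. Both gai-YPet cuc2-1 percentiles lay above both gai-YPet percentiles at 504 regions (17.6%) and below both at 450 (15.7%), and at 954 (33.3%) in either direction. The median absolute difference between genotype means was 6.49 percentile points, beside a median replicate SD of 6.63 points in gai-YPet cuc2-1 and 6.06 points in gai-YPet. The median standard error of the genotype difference was 0.328 on the normal score scale. Differences well beyond that standard error did not pass either, as at APT3, where the difference was -1.18 on that scale with a standard error of 0.294 and an adjusted p of 0.969 in limma.

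The longer gai-YPet cuc2-1 list was more like either gai-YPet list than like its own replicate. As a description over the 2868 regions, which all come from the same 4 libraries, Spearman's rho was 0.896 between gai-YPet cuc2-1 replicate 1 and gai-YPet replicate 1 and 0.880 between gai-YPet cuc2-1 replicate 1 and gai-YPet replicate 2. For gai-YPet cuc2-1 replicate 2 it was 0.803 with gai-YPet replicate 1 and 0.798 with gai-YPet replicate 2. Within a genotype it was 0.817 for gai-YPet cuc2-1 and 0.865 for gai-YPet. The shortest list thus gave the 3 lowest values, whatever the genotype of its partner. Of the 100 regions with the highest mean rank in each genotype, 79 were in both sets.

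**Figure D3:**
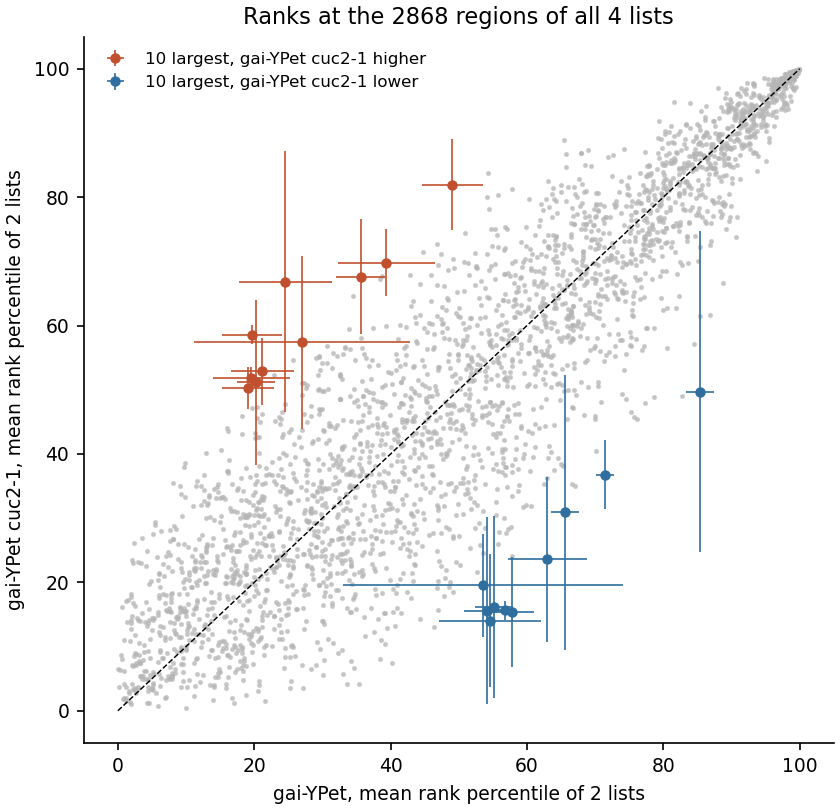
Mean rank percentile in gai-YPet cuc2-1 (vertical axis) against gai-YPet (horizontal axis) at the 2868 regions of all 4 lists. In colour are the 10 regions that differed most in each direction, among those without overlap between genotypes. Lines span the percentiles of the 2 lists of a genotype and the dashed line marks equal rank; differences run between -42.4 and 42.3 points, and the scatter narrows toward the strongest regions.

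The regions with the widest gaps among those whose ranks did not overlap between genotypes are described here. They were picked for both the gap and the lack of overlap, so neither carries a test. CYP78A6, a cytochrome P450 that promotes growth of seeds and other organs, had percentiles of 46.5 and 87.2 in gai-YPet cuc2-1, against 31.5 and 17.7 in gai-YPet (chromosome 2, 19153673 to 19154348). The 2 gai-YPet cuc2-1 lists lay farther apart there than replicate 1 lay from gai-YPet. The region at AT1G75800 had 74.9 and 89.0 in gai-YPet cuc2-1 and 44.6 and 53.6 in gai-YPet, with folds of 5.19 and 4.10 in gai-YPet cuc2-1 against 3.87 and 3.81 in gai-YPet. The other 8 gaps with gai-YPet cuc2-1 higher ranged from 30.4 to 38.9 points, among them those at AT5G01720, AT5G65470, between AT4G32160 and VAMP711, a SNARE of the vacuole, between PGIP1 and PGIP2, which inhibit polygalacturonases of pathogens, and between AT1G14820 and DL1C, a dynamin-like protein.

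Among the regions lower in gai-YPet cuc2-1, APT3, an adenine phosphoribosyltransferase, had percentiles of 14.2 and 17.1 in gai-YPet cuc2-1, against 55.6 and 58.0 in gai-YPet (chromosome 4, 11882968 to 11884178). Both replicates of each genotype lay close together there, and the folds were 2.82 and 2.21 in gai-YPet cuc2-1 against 5.24 and 5.04 in gai-YPet. Folds are not on a common scale across lists. Their medians over the 2868 regions were 4.14 and 2.76 in gai-YPet cuc2-1 and 4.70 and 4.47 in gai-YPet. The widest gap of all, -42.4 points, was at a region with no gene within 1000 bp (chromosome 2, 17443666 to 17444260), with 23.9 and 6.87 in gai-YPet cuc2-1 and 54.7 and 61.0 in gai-YPet. ARF8, an auxin response factor of stamens and fruit, had 52.3 and 9.54 in gai-YPet cuc2-1 and 67.6 and 63.5 in gai-YPet. Its gap rested mostly on the shorter gai-YPet cuc2-1 list. The other 7 gaps in this direction ranged from -40.6 to -34.0 points, at AT4G31330, AT4G09500, AT5G54530, AT2G41890, ORG1, AT1G08967 and cycp3;1, a P-type cyclin. The lowest adjusted p over all regions was 0.969 in limma, so none of the 20 gaps passed.

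The strongest regions of gibberellin signalling genes had peaks in all 4 lists. In this and the following lists, a gene with more than 1 region of all 4 lists was entered with 1 of them. SCL3, whose GRAS protein counteracts DELLAs, shares its region with the sterol reductase gene DWF5, and that region ranked 3 and 1 of 2868 in gai-YPet cuc2-1, against 1 and 5 in gai-YPet. GID1B, a gibberellin receptor, had percentiles of 93.7 and 92.1 in gai-YPet cuc2-1 and 95.2 and 96.8 in gai-YPet. Another GID1B region of all 4 lists was left out. Its percentiles within the whole lists were 94.8 and 89.1 in gai-YPet cuc2-1 and 90.4 and 95.5 in gai-YPet. Whole lists differ in length, so those values are not on the scale of the ranks given here. SLY1, the F-box protein that hands DELLAs to degradation, had 67.8 and 76.7 in gai-YPet cuc2-1 against 74.0 and 88.2 in gai-YPet, and the DELLA gene RGL2 had 69.5 and 75.6 in gai-YPet cuc2-1 against 54.4 and 73.7 in gai-YPet, both with overlapping groups. Over these 4 members of the 12 listed signalling genes, the median difference was -1.54 points, beside 0.72 over all 2663 protein-coding genes at such regions. RGL1, also a DELLA gene, and the receptor gene GID1C lacked only the gai-YPet cuc2-1 replicate 2 peak. RGA, another DELLA gene, the receptor gene GID1A and SNE, an F-box gene, had a peak in gai-YPet replicate 2 alone, and RGL3 and SPY, which modifies DELLA proteins, had none in any list.

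Genes that make and break down gibberellin were split. GA20OX2, which makes gibberellin precursors, had percentiles of 94.5 and 96.8 in gai-YPet cuc2-1 and 94.4 and 93.8 in gai-YPet, and GA2OX8, which inactivates precursors, had 96.1 and 94.9 in gai-YPet cuc2-1 against 92.8 and 85.4 in gai-YPet. In both, all gai-YPet cuc2-1 values lay above the gai-YPet values, by 1.53 and 6.42 points of the mean. GA3OX1, which forms active gibberellin, had 18.7 and 32.8 in gai-YPet cuc2-1, against 64.4 and 41.8 in gai-YPet, a difference of -27.3 points without overlap (chromosome 1, 5346635 to 5347217). GA2OX2, an inactivating enzyme, had 14.7 and 10.8 in gai-YPet cuc2-1 against 31.9 and 22.6 in gai-YPet. GA20OX1 had 86.4 and 53.6 in gai-YPet cuc2-1 against 81.6 and 83.4 in gai-YPet, and GA3, the ent-kaurene oxidase gene, which shares its region with IAA28, had 29.9 and 9.54 in gai-YPet cuc2-1 against 45.0 and 23.6 in gai-YPet, both with overlap. The median over the 6 listed metabolism genes was -13.5 points. No region of these genes passed limma (lowest adjusted p over all regions 0.969). GA1, KAO1, KAO2, GA20OX3 and GA2OX4 had regions that lacked only gai-YPet cuc2-1 replicate 2, and GA2 had 1 held by gai-YPet cuc2-1 replicate 1 and gai-YPet replicate 2. GA2OX1 had a peak in gai-YPet replicate 2 alone, and GA20OX4, GA20OX5, GA3OX2, GA3OX3, GA3OX4, GA2OX3 and GA2OX7 had none.

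The IDD genes, whose proteins carry DELLAs to DNA, lay mostly at regions of all 4 lists, 10 of 12. Over all protein-coding genes the share at such regions was 9.7%. At the regions entered, both gai-YPet cuc2-1 values lay below both gai-YPet values at 5 of the 10 and above at 0. The median difference was -3.74 points. IDD1, IDD4 and IDD5 each had another region of all 4 lists that was left out, so these counts can depend on the region entered. Over all regions the share below was 15.7%. Of the 2663 protein-coding genes at such regions, 380 were below and 507 above. The list itself was not tested. IDD7 had percentiles of 47.6 and 33.4 in gai-YPet cuc2-1 and 75.2 and 65.1 in gai-YPet, and IDD2 had 52.7 and 19.9 in gai-YPet cuc2-1 against 57.2 and 68.5 in gai-YPet. IDD15, IDD14 and IDD5 were the other 3, with differences of -15.2, -6.19 and -3.57 points. The other 5 IDD genes, IDD1, IDD3, IDD4, IDD11 and IDD16, overlapped between genotypes.

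The CUC genes and their regulators were at weaker regions. CUC3 had a peak in all 4 lists, with percentiles of 15.5 and 32.8 in gai-YPet cuc2-1 and 33.9 and 25.8 in gai-YPet, which overlapped. CUC1 had a fold of 2.49 in gai-YPet cuc2-1 replicate 1 and no peak in replicate 2, against 3.13 and 2.71 in gai-YPet. Folds here and below are not on a common scale across lists. CUC2 itself, the mutated gene, had 3 regions, all without a peak in gai-YPet cuc2-1 replicate 2. At the region 700 bp from the gene the fold was 1.88 in gai-YPet cuc2-1 replicate 1, against 3.49 and 2.92 in gai-YPet. Inside the gene it was 2.03 in gai-YPet cuc2-1 replicate 1, against no peak in gai-YPet replicate 1 and 2.01 in gai-YPet replicate 2. The last, 792 bp from the gene, had a peak in gai-YPet replicate 2 alone, at 2.27. MIR164B, one of the genes of the microRNA that cuts CUC1 and CUC2 transcripts, had folds of 2.47 and 2.35 in gai-YPet and no peak near it in gai-YPet cuc2-1. Of the 26 listed CUC and boundary genes, 10 were at regions of all 4 lists, with a median of -5.63 points. At the regions entered, gai-YPet cuc2-1 was below at 3 (RAX1, NGA2 and NGA4) and above at 0, beside 15.7% below and 17.6% above over all regions. NGA3 and NGA4 each had another region of all 4 lists that was left out, so these counts can depend on the region entered. The share of all protein-coding genes at regions of all 4 lists was 9.7%, and the boundary list was not tested. RAX1, a MYB gene of axillary meristems, had 27.8 and 24.1 in gai-YPet cuc2-1 and 52.4 and 31.2 in gai-YPet. NGA1, a style gene, went the other way on average, with 34.8 and 59.3 in gai-YPet cuc2-1 against 22.9 and 36.2 in gai-YPet, and overlapped.

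Genes of ovule number, flowers and meristems showed gaps in both directions. Of the 31 listed ovule and placenta genes, 8 were at regions of all 4 lists, beside 9.7% of all protein-coding genes. For these 8 the median was -7.51 points. The gai-YPet cuc2-1 values were below at 3 and above at 1, beside 15.7% below and 17.6% above over all regions. RPL, a homeobox gene of the replum, had percentiles of 41.0 and 29.8 in gai-YPet cuc2-1 and 75.3 and 49.6 in gai-YPet. Another RPL region of all 4 lists had folds of 4.08 and 2.83 in gai-YPet cuc2-1 and 5.43 and 3.89 in gai-YPet. Median folds over such regions differ by list, at 4.14 and 2.76 in gai-YPet cuc2-1 and 4.70 and 4.47 in gai-YPet. The folds of that RPL region are not ranks, and no rank gap is read from them. AIL6, an AP2-type growth gene of flower primordia, had percentiles of 23.9 and 19.9 in gai-YPet cuc2-1 against 56.7 and 39.4 in gai-YPet. CKX5, which breaks down cytokinin and limits ovule number, was the one above, with 74.2 and 84.7 in gai-YPet cuc2-1 against 72.9 and 55.6 in gai-YPet. Among 16 floral and meristem genes, gai-YPet cuc2-1 was above at 4 and below at 4, with a median of 0.72 points, the same as over all protein-coding genes. PI, a petal and stamen identity gene, had 17.9 and 28.4 in gai-YPet cuc2-1 and 50.7 and 48.5 in gai-YPet. AP1, which specifies flower identity, had 35.5 and 73.0 in gai-YPet cuc2-1 against 21.3 and 39.9 in gai-YPet, with overlap.

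Hormone lists other than gibberellin held single genes with wide gaps. Their counts of genes above and below stand beside 17.6% above and 15.7% below over all regions, and the lists were not tested. Of 26 auxin genes at regions of all 4 lists, 5 were above and 3 below, with a median of 3.95 points. The auxin exporter genes PIN7 and PIN4 were above, PIN7 with percentiles of 54.8 and 55.6 in gai-YPet cuc2-1 and 37.1 and 22.0 in gai-YPet, and PIN4 with 48.1 and 58.8 in gai-YPet cuc2-1 against 31.5 and 31.5 in gai-YPet. Of 13 brassinosteroid genes, 5 were above and 2 below, with a median of 3.64 points. PRE6, a growth-promoting helix-loop-helix gene, had 50.8 and 60.7 in gai-YPet cuc2-1 and 43.4 and 19.7 in gai-YPet, and BSK1, a signalling kinase, had 11.1 and 1.94 in gai-YPet cuc2-1 against 24.97 and 31.68 in gai-YPet. BEE3, a helix-loop-helix gene induced by brassinosteroid, had 14.4 and 32.0 in gai-YPet cuc2-1 against 0.0523 and 5.74 in gai-YPet. For 9 cytokinin genes the counts were 2 above and 1 below, with a median of -6.73 points, led by CKX6, AHK4 and CKX7 at -21.5, -14.8 and -13.3 points, each with overlap. For 11 jasmonate genes they were 3 above and 2 below with a median of 0.497 points. MYC3, a jasmonate transcription factor, had 22.3 and 18.2 in gai-YPet cuc2-1 and 46.2 and 40.3 in gai-YPet, and AOC1, of jasmonate synthesis, had 75.2 and 69.2 in gai-YPet cuc2-1 against 64.4 and 47.2 in gai-YPet. The 4 genes of abscisic acid and ethylene, EIL1, PYL8, PYL2 and PYL5, all overlapped, with differences between -2.08 and 0.401 points.

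Medians of the other lists ran between -7.38 and 0.262 points, the lowest from a list with 1 member there. The 10 TCP genes gave a median of 0.148 points, with 3 above and 1 below, beside the same 17.6% and 15.7% over all regions; TCP9 had percentiles of 77.5 and 96.2 in gai-YPet cuc2-1 and 65.8 and 70.1 in gai-YPet. The 7 cell cycle genes gave -1.77 points, with CYCD2;1, a D-type cyclin, at 35.8 and 50.5 in gai-YPet cuc2-1 and 18.2 and 30.2 in gai-YPet, and CYCD3;2, another D-type cyclin, at 72.9 and 70.0 in gai-YPet cuc2-1 against 89.0 and 74.3 in gai-YPet. The 11 light signalling genes gave 0.262 points, with PIF1, a phytochrome-interacting factor, higher in gai-YPet cuc2-1 by 9.57 points and the photoreceptor gene CRY2 at -8.86 points. The 4 photosynthesis genes, of which RBCS1B and RBCS2B share their region, gave -0.0523 points with all groups overlapping. SCR in the root list and OLEO4 in the seed storage list were the only members of their lists at such regions, at -0.689 and -7.38 points, both with overlap. The clock, tapetum and housekeeping lists had 0 members there.

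**Figure D4:**
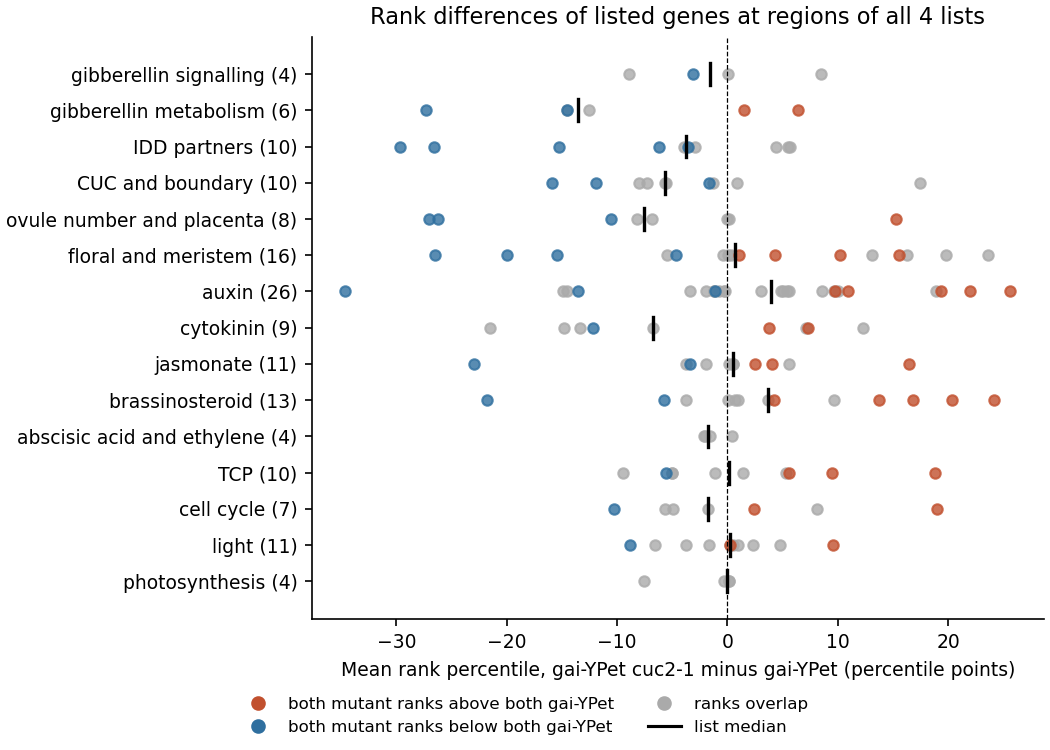
Difference in mean rank percentile, gai-YPet cuc2-1 minus gai-YPet (horizontal axis, percentile points), for listed genes at regions of all 4 lists. Genes are shown by gene list (vertical axis, number of genes in brackets), for lists with at least 4 such genes. Red and blue points are genes whose 2 gai-YPet cuc2-1 ranks both lie above or both below the gai-YPet ranks, grey points overlap and black bars are list medians, which run from -13.5 for gibberellin metabolism to 3.95 for auxin; 0 of these regions passed limma.

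The 560 regions held by both gai-YPet lists and no gai-YPet cuc2-1 list were weak. Their median strength in gai-YPet was 30.8, against 81.5 for the 2868 regions of all 4 lists, and their median fold was 2.57 and 2.43 in gai-YPet replicates 1 and 2. A merged region spans all its peaks, so regions held by more lists are wider by construction. Regions of all 4 lists were 844 bp wide at the median, and those that lacked only gai-YPet cuc2-1 replicate 2 were 545 bp wide. The 560 regions were 389 bp wide at the median. Their place relative to genes was like that of the others. The summit lay inside a protein-coding gene at 32.5%, within 1000 bp of one at 41.4% and farther away at 26.1%, against 32.1%, 43.3% and 24.7% for regions of all 4 lists. A region of all 4 lists lay within 1000 bp of 74 of the 560 (13.2%), and the median distance to the nearest one was 7622.5 bp.

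A gene was counted at a region when it contained the summit of the region or had that summit no more than 1000 bp away. By that count 531 protein-coding genes lay at gai-YPet only regions, 1.93% of the 27444 in the table, of which 384 had no other region with a gai-YPet cuc2-1 peak and 147 did. In comparison, 2663 (9.7%) lay at regions of all 4 lists. The strongest gai-YPet only region lay between UMAMIT2, a transporter of the UmamiT family, and AT4G19180, on chromosome 4 from 10488609 to 10489005, with folds of 3.60 and 3.49. AT4G19180 had a gai-YPet cuc2-1 peak at another region. CIPK3, a calcium-signalling kinase, and its neighbour FUS12, PAO2, a polyamine oxidase, ZFHD1, a zinc finger homeobox gene, and AT3G56770 were at the other 4 regions within the first 3445 peaks of both gai-YPet lists. The rest of the 12 strongest lay at AT2G24360, LACS1, of cuticle synthesis, BBX29, a B-box gene, LOH2, a ceramide synthase, ESR1, an AP2-type gene of shoot formation, AT4G11300 and a place on chromosome 5 without a gene within 1000 bp. ESR1 had folds of 3.06 and 3.42 in gai-YPet (chromosome 1, 4431014 to 4431402). Of the genes at these 12 regions, AT4G19180, BBX29 and AT3G56770 had a gai-YPet cuc2-1 peak elsewhere.

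Several regulators lay at gai-YPet only regions, most of them among the weak peaks of the lists. Of the gibberellin genes, GAI had folds of 1.74 and 1.78 in gai-YPet, inside the gene from which the transgene was built, and the lists do not separate the 2 copies. A different region near GAI held a peak in gai-YPet cuc2-1 replicate 1, at a fold of 1.84. RGL2 and GA1 had such a region beside others that gai-YPet cuc2-1 also held. GA2OX6, a gibberellin-inactivating enzyme, had folds of 2.40 and 2.11 and no gai-YPet cuc2-1 peak nearby. FUL, a MADS-box gene of the fruit valves, had 1.74 and 2.87, and SEP2, a floral MADS-box gene, had 2.19 and 2.22. ARF17, an auxin response factor, had 2.86 and 3.27, and the cytokinin response genes ARR16 and CRF4 had 2.96 and 2.47, and 2.62 and 2.30. The clock genes PRR9 and LNK2 had 2.40 and 2.17, and 2.35 and 1.68. RD29A, a stress-induced gene, CYCD4;1, LHCB6, ATA7, CPC and GAPC2 were the other listed genes with no gai-YPet cuc2-1 peak at any region.

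Other listed genes had a gai-YPet only region beside another region that gai-YPet cuc2-1 also held. SHP2, which acts in carpel and ovule identity, had folds of 2.47 and 2.22 at its gai-YPet only region, and its region in all 4 lists had percentiles of 38.0 and 57.3 in gai-YPet cuc2-1 and 58.3 and 58.0 in gai-YPet. SOC1, a flowering integrator, had 2.17 and 2.45, and PIN3, an auxin exporter gene, 2.68 and 2.64. CKX5 and TCP7 had 2 gai-YPet only regions each beside a region of all 4 lists. BEE3 had folds of 2.76 and 2.30 at a gai-YPet only region inside the gene, while its region of all 4 lists ranked higher in gai-YPet cuc2-1. CRF2, TIR1, LAX1, BRL1, BEH3, TCP13 and LHY were the others, and each of them had a gai-YPet cuc2-1 peak at another region.

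Counts by family symbol stand beside 1.93% over all protein-coding genes and were not tested. By symbol, 4 of 86 NAC genes (4.65%) lay at gai-YPet only regions, namely NAC041, NAC057, NAC050 and NAC052, the last 2 at the same region, and none of the 4 had a gai-YPet cuc2-1 peak elsewhere. The count was 6 of 120 (5%) for MYB genes, led by MYB12, a flavonol regulator, with folds of 3.33 and 3.26, and MYB28, a glucosinolate regulator, with 3.10 and 3.22. It was 3 of 67 (4.48%) for WRKY genes and 4 of 47 (8.51%) for HB genes, among them HB-7 and HB-12, with 2.53 and 3.02, and 2.35 and 2.11. SPL8, ARF17 and bHLH115 were single members, and genes with a TCP, IDD or IAA symbol gave 0. That count misses TCP7 and TCP13 because the gene table lists them under other names. Of 326 MIR genes, which are not protein-coding and so not part of the 1.93%, 3 (0.920%) were there. These were MIR161, MIR166c, whose product cuts HD-ZIP III transcripts, and MIR164b. At the 41 regions of gai-YPet cuc2-1 only, the count was 0 in every family, and 0 of the 489 genes of the lists lay there. The share of all protein-coding genes at those 41 regions was 0.0692%, so counts of 0 are close to it.

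The 41 regions held by both gai-YPet cuc2-1 lists and no gai-YPet list lay mostly on chromosome 2 and beside pseudogenes. They held 19 protein-coding genes (0.0692%), of which 8 had no gai-YPet peak at another region. A stretch of chromosome 2 from 3200001 to 3520000 held 21 of the 41 (51.2%), spanning 3258929 to 3432507. The start of chromosome 2, up to 40000, held 4 more, beside AT2G01024, AT2G01026 and AT2G01029. At that start the untagged Ler lists had 20 and 8 peaks (11.2% and 2.02% of their nuclear peaks). Before removal of Ler-touching peaks, the gai-YPet cuc2-1 lists had 17 and 17 there (0.215% and 0.475%). The gai-YPet lists had 13 and 5 (0.190% and 0.0445%). In the reference genome of Arabidopsis a large copy of the mitochondrial genome sits near the centromere of chromosome 2, and ribosomal RNA genes lie at the tip of that chromosome. Of the 16 regions elsewhere, 14 had an annotated pseudogene within 1000 bp and 0 had a protein-coding gene. Over all 41, 27 (65.9%) had a pseudogene within 1000 bp, against 13 (2.32%) of the 560 gai-YPet only regions and 57 (1.99%) of the 2868 regions of all 4 lists.

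These regions were weak as well. Their folds ranged from 1.29 to 2.52 in gai-YPet cuc2-1 replicate 1 and from 1.48 to 2.76 in replicate 2, with medians of 1.79 and 1.72, and their median strength was 15.7. The strongest, on chromosome 3 from 13187287 to 13187705, had no gene within 1000 bp and folds of 2.42 and 2.76. The next were 2 regions at the pseudogene AT2G01029, then those at AT2G07648, AT4G03840, AT5G32420 and AT2G12505. Others among the 12 strongest lay at AT2G05165, AT1G42045, AT2G07719, AT5G31981 and AT2G07631. ABCI4, at a fold of 1.49 and 1.75, was the only gene of the 41 regions with a symbol other than its locus number and was picked out after its values were seen. The median distance to the nearest region of all 4 lists was 55376 bp, and 1 of the 41 (2.44%) had one within 1000 bp.

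The number of peaks in the chromosome 2 stretch differed widely between the 2 lists of each genotype. It held 246 and 48 peaks in gai-YPet cuc2-1 replicates 1 and 2, 66 and 15 in gai-YPet and 3 and 1 in Ler. As a share of the nuclear peaks of the list, that is 3.12% and 1.34% in gai-YPet cuc2-1, 0.965% and 0.133% in gai-YPet and 1.69% and 0.252% in Ler. Both gai-YPet cuc2-1 shares lay above both gai-YPet shares, and the share in Ler replicate 1 was higher than in 3 of the 4 tagged lists, on 3 peaks. Peaks on the mitochondrial genome, outside the comparison, numbered 303 and 81 in gai-YPet cuc2-1, 126 and 20 in gai-YPet and 0 and 4 in Ler. Of all peaks of the list, these were 3.70% and 2.21% in gai-YPet cuc2-1, 1.79% and 0.177% in gai-YPet and 0% and 0.985% in Ler. By number gai-YPet cuc2-1 replicate 1 was highest in both places, followed by gai-YPet replicate 1, gai-YPet cuc2-1 replicate 2 and gai-YPet replicate 2, whereas by share both gai-YPet cuc2-1 lists came before both gai-YPet lists. The median fold in the stretch was 1.67 and 1.64 in gai-YPet cuc2-1, 1.71 and 1.51 in gai-YPet and 1.98 and 1.78 in Ler. The part of mitochondrial DNA in the 21 regions was not tested. Without the stretch 20 regions were held by gai-YPet cuc2-1 only. That count was 118 without gai-YPet cuc2-1 replicate 1, 839 without replicate 2 and 85 without gai-YPet replicate 2, and it was 0 in the stronger 50% of each list.

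**Figure D5:**
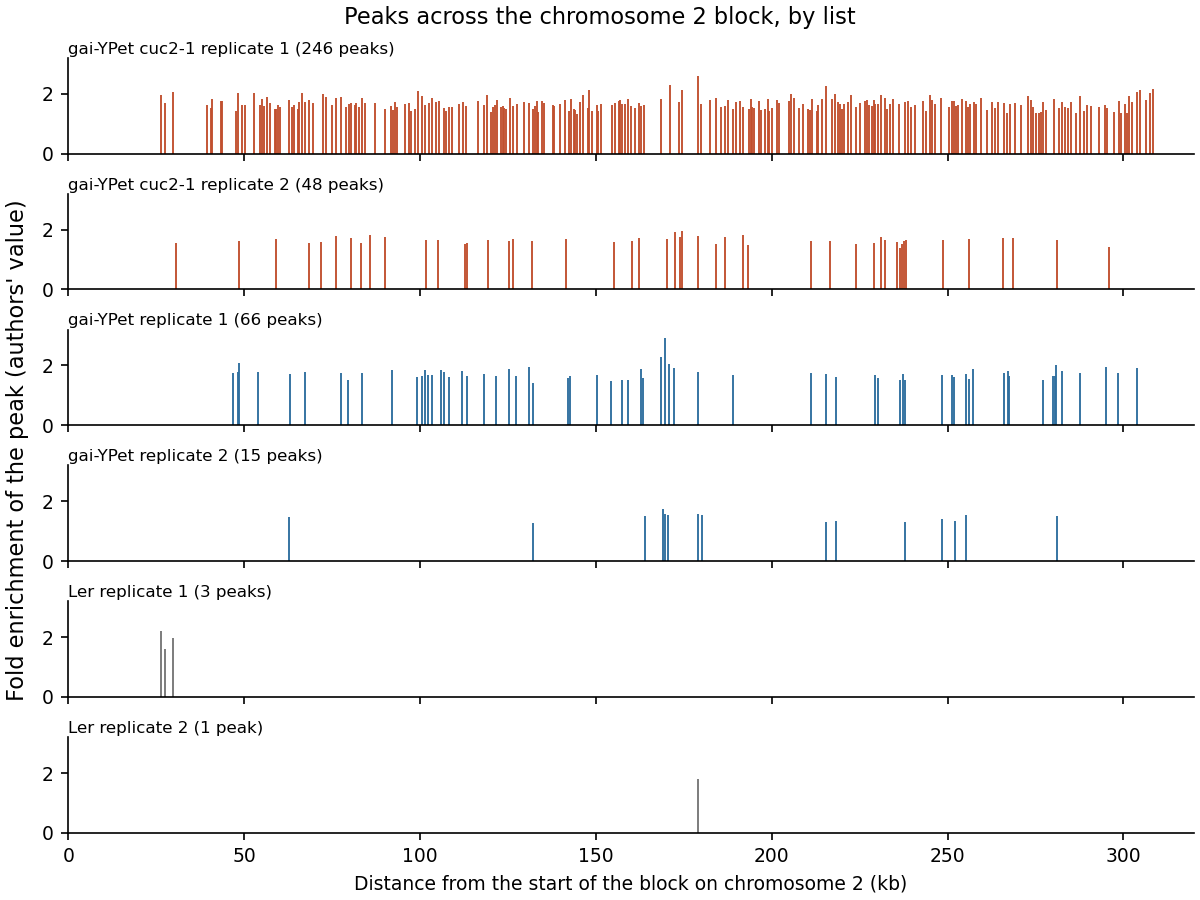
Peaks in the chromosome 2 stretch from 3200001 to 3520000, as lines at each peak's centre (horizontal axis, distance from the start of the stretch in kb) with the fold enrichment of the peak (vertical axis), 1 panel per list. gai-YPet cuc2-1 replicate 1 has 246 peaks over most of the stretch, the other tagged lists 48, 66 and 15, and the Ler lists 3 and 1.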

How the data were processed

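The 6 peak lists, 2 for each genotype, were assigned by source name. Per the submitters' processing notes, MACS2, Bowtie2, cutadapt, SAMtools and bedtools were used with build TAIR10; the notes used here name no versions or settings. The authors' deposited peak values are a score, a fold enrichment, a p-value and a q-value, both as −log10. The deposited score is 10 times the −log10 q, cut to a whole number, in 100% of lines. The authors' fold and −log10 columns had lost their decimal marks in replicate 2 lists, which were set back to 5 decimals. The lists hold no read counts, so depth is unknown.

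Nuclear peaks that touched a Ler peak were removed and the rest merged at 1 bp of overlap. Ranks by score over regions of all 4 lists, as normal scores, were compared with limma 3.58.1 (R 4.3.3), with Benjamini-Hochberg adjustment over 2868 regions and a threshold of 0.05; p-values measure the spread between these replicate pools. Gene names came from a RefSeq table of assembly TAIR10.1, assuming the nuclear positions of TAIR10; without strand, sides of a gene were not told apart. Of 504 names in 20 gene lists, 415 matched by symbol, 76 by synonym and 13 were left out. The members and lists were chosen with earlier results of these data known.

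Named genes were GAI, RGA, the RGL and GID1 genes, SCL3, the gibberellin oxidases and the CUC genes whatever their values, genes at the 12 strongest regions of 1 genotype only, at the 10 widest rank gaps in each direction, listed genes at regions of 1 genotype only, up to 3 per list by rank difference, and up to 6 per family. The widest rank gaps were taken only from regions where both lists of 1 genotype ranked above both of the other. Other gibberellin, IDD and boundary genes were named after their values were seen. Alternatives were a reciprocal overlap of 50%, lists of equal length, the stronger 50% of every list, Ler-touching peaks kept, each list left out, ranks by fold or as percentiles, regions of at least 3 lists, a replicate block and windows of 500 bp and 3000 bp. Whether replicate numbers pair the samples is not known. The correlation of deviations was 0.0426 over 2 pairs, which is too little to exclude a shared batch. Promoters and motifs were not analysed here. The code was tested on simulated data and used numpy 2.4.6, pandas 2.3.3 and scipy 1.17.1 in Python 3.11.15, with figures from matplotlib 3.10.9 and an overlap check with bedtools 2.31.1.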

Additional observations from a re-analysis of the deposited data

Results flagged for a closer look

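Peaks on the mitochondrial genome, which the comparison left out, were more numerous in every tagged list than in the untagged control, but as a share of the list this did not hold for gai-YPet replicate 2. They numbered 303 in gai-YPet cuc2-1 replicate 1 (3.70% of the list) and 81 in replicate 2 (2.21%), against 126 in gai-YPet replicate 1 (1.79%) and 20 in replicate 2 (0.177%), and 0 (0%) and 4 (0.985%) in the Ler lists. Their median folds were 1.64 and 1.57 in gai-YPet cuc2-1 and 1.65 and 1.43 in gai-YPet, below the medians of nuclear peaks in the same lists, and 1.83 in Ler replicate 2. Together they covered 186358 bp and 28191 bp in gai-YPet cuc2-1 and 53787 bp and 6816 bp in gai-YPet.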

How the results depend on the processing

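The count of rank differences passing limma was 0 under 8 alternatives that kept all 4 lists, with lowest adjusted p between 0.734 and 0.999. It was also 0 with each list left out in turn (0.263 to 0.9996), but there 1 list stands alone in its genotype and is assumed to vary like the other genotype, so that these zeros say nothing about stability. With the replicate block, limma gave 3 (UBQ13, BEE3 and ABCB19, adjusted p 0.0499). That is a paired fit by replicate number, and whether these numbers pair the samples is not known. Requiring a reciprocal overlap of 50% gave 86 regions of gai-YPet cuc2-1 only and 1868 of all 4 lists. In the stronger 50% of each list the counts were 0 for gai-YPet cuc2-1 only, 201 for gai-YPet only and 1539 for all 4. Lists of equal length gave 109 of gai-YPet only. With each list left out in turn, the range was 61 to 839 for gai-YPet cuc2-1 only, 569 to 4993 for gai-YPet only and 2876 to 5185 for all remaining lists. Without the chromosome 2 stretch, an alternative chosen after seeing the data, 20 regions were of gai-YPet cuc2-1 only.

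Protein-coding genes with the summit inside numbered 9 at gai-YPet cuc2-1 only and 184 at gai-YPet only regions, and within 3000 bp 35 and 1057. The share of regions beside a gene was 0% for gai-YPet cuc2-1 only, 26.4% for gai-YPet only and 28.0% for all 4 lists at 500 bp, and 63.6% for gai-YPet only and 63.7% for all 4 at 3000 bp. All of these windows widen or narrow the count by construction. For the other changes the cause was not tested. Of 31 named rank differences, 31 kept their sign with ranks by fold, where 10 moved by more than the replicate SD. Without gai-YPet cuc2-1 replicate 2, 29 kept their sign and 19 moved by more than that SD. On the normal score scale CYP78A6 was then at 0.45 in place of 1.23, AT1G75800 at 0.53 in place of 0.97 and AT2G41890 at -0.45 in place of -1.51. In the weakest of the 10 groups of gai-YPet regions, gai-YPet cuc2-1 replicate 2 had a peak at 4.34% and replicate 1 at 51.0%. The part of list length in this was not tested.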
